A study of Homo sapiens with 16 samples.

Results

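The data show how the response of SW620 cells to 24 h of 5-FU differed between cells with a short hairpin RNA against ATF4 and cells with a scrambled control hairpin. The measure is the interaction, which is the response of shATF4 cells (treated against untreated) minus the response of scramble cells, on the log2 scale. A positive interaction means that a gene rose more, or fell less, in shATF4 cells. Of 58735 genes in the deposited table, 17309 passed a filter on low counts and were tested. No measured difference between groups was used to choose them. The 4 groups were shATF4 cells after 24 h in 5 µM 5-FU, untreated shATF4 cells, scramble cells after 24 h in 5 µM 5-FU and untreated scramble cells, with 3 libraries each, so 12 of the 16 libraries of the series. The other 4 libraries, of both lines at 48 h, entered the filter on low counts, the scaling and the estimate of spread. Apart from that they gave only a few values at 48 h. SW620 is an established line from a lymph node metastasis of a human colorectal carcinoma and carries a mutant p53. The study set out to learn what ATF4 contributes to resistance against chemotherapy, and its title names TNF-α and PERK beside ATF4.

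ATF4 is the main transcription factor of the integrated stress response. Kinases such as PERK, which senses misfolded proteins in the endoplasmic reticulum, and GCN2, which senses uncharged tRNA, phosphorylate the initiation factor eIF2α. General translation then falls while ATF4 mRNA is translated more, so ATF4 activity is set largely at the level of protein. ATF4 protein switches on genes for amino acid synthesis and uptake, tRNA charging and, under lasting stress, cell death. 5-FU is a pyrimidine analogue that inhibits thymidylate synthase and enters RNA, where it disturbs the processing of ribosomal RNA.

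Each arm was 1 line with 1 hairpin, so effects of ATF4 loss, of other targets of the hairpin and of the lines themselves cannot be told apart. The untreated libraries carry no time label, so the drug and time in culture cannot be told apart in either response. Nothing in the labels says that the 3 libraries of a group came from separate cultures, so the p-values rest on a spread between samples that may be technical. Total counts ran from 14571611 to 17824188 over the 12 libraries. CPM are counts relative to the scaled size of the library, apart from the following marker values, which use total counts. The 8 markers of colorectal epithelium summed to between 8810 and 10900 CPM, with KRT8 at a mean of 5700 CPM and LGALS4 at only 0.403 CPM. Sums were 3.28 to 16.5 CPM for 6 leukocyte markers and 3.39 to 12.4 CPM for 5 endothelial markers. For 6 fibroblast markers they were 31.8 to 64.9 CPM, with LUM the highest at a mean of 27.9 CPM. Untreated scramble replicate 2 stood apart with 1.42% of counts in mitochondrially encoded protein genes. Treated shATF4 replicate 3 stood apart with 0.0713% of counts in signal recognition particle RNA (RN7SL). All 3 treated shATF4 libraries had more RN7SL (0.0224% to 0.0713%) than the treated scramble libraries (0.00424% to 0.00614%), and more mitochondrial ribosomal RNA (1.14% to 1.45% against 0.881% to 0.955%). The part of these differences in the results was not tested, and the main results are given with and without those 2 libraries.

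ATF4 itself (chromosome 22, 39519695 to 39522685, plus strand, GRCh38) was the check of the knockdown. Its mRNA stood at 91.1, 109 and 130 CPM in treated and 172, 169 and 179 CPM in untreated shATF4 libraries, against 270, 285 and 280 CPM in treated and 388, 364 and 384 CPM in untreated scramble libraries. Every shATF4 library was below every scramble library, and within each line the treated libraries were below the untreated ones. ATF4 mRNA fell in both lines, by 0.65 in shATF4 cells (adjusted p = 4.07e-06) and by 0.44 in scramble cells (adjusted p = 0.000259), on the log2 scale. The difference between these falls was not called (-0.21 ± 0.12 SE, adjusted p = 0.374), with a 95% interval of -0.46 to 0.04. ATF4 was called in 3 alternative fits, at -0.35 (adjusted p = 0.0268) without treated shATF4 replicate 3, at -0.33 (adjusted p = 0.0322) with both libraries that stood apart left out and at -0.33 (adjusted p = 0.0388) with a correction for GC content and transcript length. Every adjusted p here is a Benjamini-Hochberg value over the 17309 genes from edgeR's quasi-likelihood test, and "called" means an adjusted p under 0.05.

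Both lines responded widely to the drug. In shATF4 cells 7687 genes (44.4% of those tested) were called, 4018 higher and 3669 lower, and in scramble cells 7610 (44%), 3769 higher and 3841 lower. The 2 responses rest on separate libraries. Across 14004 genes that averaged 1 CPM or more they correlated with Pearson's r = 0.826 and Spearman's rho = 0.771, as a description across genes, which are not independent replicates. Of the 14004 genes, 11103 (79.3%) had the same sign in both lines. The mean response of both lines was called and at least 2-fold for 1984 genes (11.5%), 1679 up and 305 down. Of these, 1977 (99.6%) had the same sign in both lines, which a choice on the mean favours. This ranking does not use the difference between the lines, and 31 of the 1984 genes (1.56%) were called in the interaction, beside 2.13% of all genes tested. They were 17 of the 1679 rises (1.01%) and 14 of the 305 falls (4.59%). Among genes of at least 10 CPM the shares were 9 of 244 rises (3.69%) and 10 of 67 falls (14.9%), beside 3.06% of all genes at that level.

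**Figure D1:**
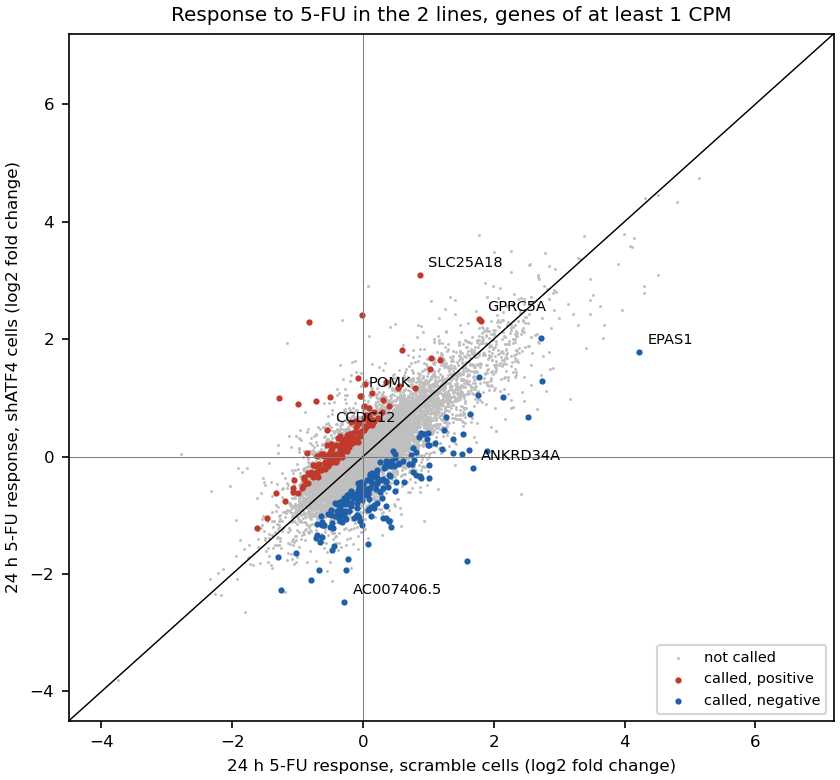
Response to 24 h of 5-FU in shATF4 cells (vertical axis) against scramble cells (horizontal axis), as log2 fold change of treated over untreated, for 14004 genes of at least 1 CPM. Red and blue points are genes called in the interaction with a positive or negative sign, grey points are other genes, and the line marks equal responses; most called genes lie at small responses close to the line, with EPAS1 and AC007406.5 among the far ones.

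The intervals show how large a difference the data allow. Of 9779 genes averaging 10 CPM or more, 9581 (98%) had a 95% interval inside a 2-fold difference of responses in either direction, and 7598 (77.7%) inside 1.5-fold. Below that level the data were less precise. Among 4225 genes of 1 to 10 CPM the share inside 2-fold was 45.1%, so larger differences were not detectable at this depth for many genes.

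The interaction was called for 369 genes, 2.13% of those tested, with 164 positive (0.947%) and 205 negative (1.18%). At an unadjusted p under 0.05 there were 3226 genes. Of the 369, 61 were at least 2-fold, 15 positive and 46 negative. The positive genes had a median response of 0.25 in shATF4 cells against -0.31 in scramble cells. For the negative genes the medians were -0.62 in shATF4 cells against 0.08 in scramble cells. In both sets the lines stood further apart when treated than when untreated. The median difference between the lines, shATF4 minus scramble, was 0.43 treated and -0.10 untreated for the positive genes, and -0.59 treated and 0.07 untreated for the negative genes. These medians describe genes chosen on the same contrast. In bulk samples, fewer cells of a kind and less RNA per cell cannot be told apart.

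The number called rested on single libraries. It was 1188, 114 and 678 without treated shATF4 replicates 1, 2 and 3, and 87, 65 and 210 without untreated shATF4 replicates 1, 2 and 3. Without treated scramble replicates 1, 2 and 3 it was 111, 192 and 87, and without untreated scramble replicates 1, 2 and 3 it was 124, 286 and 432. With both libraries that stood apart left out, 647 genes were called, 320 of them among the 369. Upper-quartile scaling called 375 genes of which 30.7% were positive, against 44.4% with the main scaling. The 369 genes kept the sign of their interaction in every fit that left out 1 library, which their choice on the same libraries favours. Since the number called moved widely, the genes that hold their call in all 21 alternative fits are described first. There were 11 of them among the 55 called genes that the naming rule picked.

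Among genes higher in shATF4 cells after treatment, POMK and LTBR rose in shATF4 cells without a called change in scramble cells. POMK encodes a kinase that phosphorylates O-mannosyl sugars on dystroglycan. Its levels were 18.7, 19.9 and 19 CPM in treated and 9.43, 8.78 and 9.88 CPM in untreated shATF4 libraries, against 8.85, 7.42 and 7.76 CPM in treated and 7.61, 9 and 8.04 CPM in untreated scramble libraries. The treated shATF4 libraries were all above the other 9 libraries, which overlapped each other. The response was 1.04 (adjusted p = 2.52e-06) in shATF4 cells and -0.04 (adjusted p = 0.852) in scramble cells, an interaction of 1.07 ± 0.20 SE, adjusted p = 0.011. LTBR, the lymphotoxin beta receptor of the TNF receptor superfamily (chromosome 12, 6375045 to 6391571, plus strand), had 124, 137 and 114 CPM in treated and 83.3, 92.1 and 88.5 CPM in untreated shATF4 libraries, against 89.4, 94.9 and 92.1 CPM in treated and 102, 105 and 92 CPM in untreated scramble libraries. Again the treated shATF4 libraries were the highest, and the other groups lay close together. LTBR changed by 0.51 (adjusted p = 1.4e-05) in shATF4 cells and by -0.11 (adjusted p = 0.254) in scramble cells, an interaction of 0.62 ± 0.11 SE, adjusted p = 0.008.

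Other genes of this kind differed in how the scramble line moved. WDR4 encodes the partner subunit of the METTL1 tRNA methyltransferase (chromosome 21, 42843094 to 42879568, minus strand). It had 62.6, 64.2 and 56.5 CPM in treated and 64.3, 67 and 71.5 CPM in untreated shATF4 libraries, against 39, 41.2 and 38.8 CPM in treated and 68.9, 71.3 and 62.8 CPM in untreated scramble libraries. In treated scramble libraries it stood below all others, and WDR4 fell in scramble cells (-0.77, adjusted p = 8.31e-08). Its response in shATF4 cells was -0.15 (adjusted p = 0.127), for an interaction of 0.63 ± 0.11 SE, adjusted p = 0.008. B4GALT5, a galactosyltransferase of glycosphingolipid synthesis (chromosome 20, 49632945 to 49713878, minus strand), had 217, 220 and 242 CPM in treated and 198, 195 and 195 CPM in untreated shATF4 libraries, against 191, 198 and 192 CPM in treated and 251, 248 and 235 CPM in untreated scramble libraries. Its treated shATF4 libraries overlapped the untreated scramble libraries, and the other groups lay below both. B4GALT5 rose in shATF4 cells (0.21, adjusted p = 0.00715) and fell in scramble cells (-0.34, adjusted p = 9.78e-05), an interaction of 0.55 ± 0.08 SE, adjusted p = 0.00651. CCDC12, a protein found with the spliceosome (chromosome 3, 46921726 to 46982010, minus strand), moved in opposite directions too. It had 40.2, 50 and 61.5 CPM in treated and 39.4, 36.9 and 34.7 CPM in untreated shATF4 libraries, against 29, 30.8 and 29.4 CPM in treated and 46.2, 46 and 38.4 CPM in untreated scramble libraries. The treated shATF4 values of CCDC12 spread more than those of the other groups and the lowest overlapped the untreated scramble libraries. It rose in shATF4 cells (0.45, adjusted p = 0.00326) and fell in scramble cells (-0.55, adjusted p = 0.000711), an interaction of 1.002 ± 0.17 SE, adjusted p = 0.008. Without the 2 libraries that stood apart it was 0.79.

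GPRC5A, an orphan receptor induced by retinoic acid (chromosome 12, 12890782 to 12917937, plus strand), was a strong responder in both lines. It had 115, 108 and 109 CPM in treated and 21.8, 21.4 and 22.3 CPM in untreated shATF4 libraries, against 124, 132 and 125 CPM in treated and 36.5, 37.9 and 37.5 CPM in untreated scramble libraries. The untreated shATF4 libraries were the lowest, and the treated libraries of both lines were far above the untreated ones, with the shATF4 ones still below the scramble ones. The rise was 2.34 (adjusted p = 2.25e-15) in shATF4 cells and 1.77 (adjusted p = 4.69e-14) in scramble cells, an interaction of 0.58 ± 0.09 SE, adjusted p = 0.008. The lines differed by -0.20 (adjusted p = 0.0268) when treated and by -0.77 (adjusted p = 7.41e-07) when untreated, so the larger response brought the shATF4 line closer to the scramble line.

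**Figure D2:**
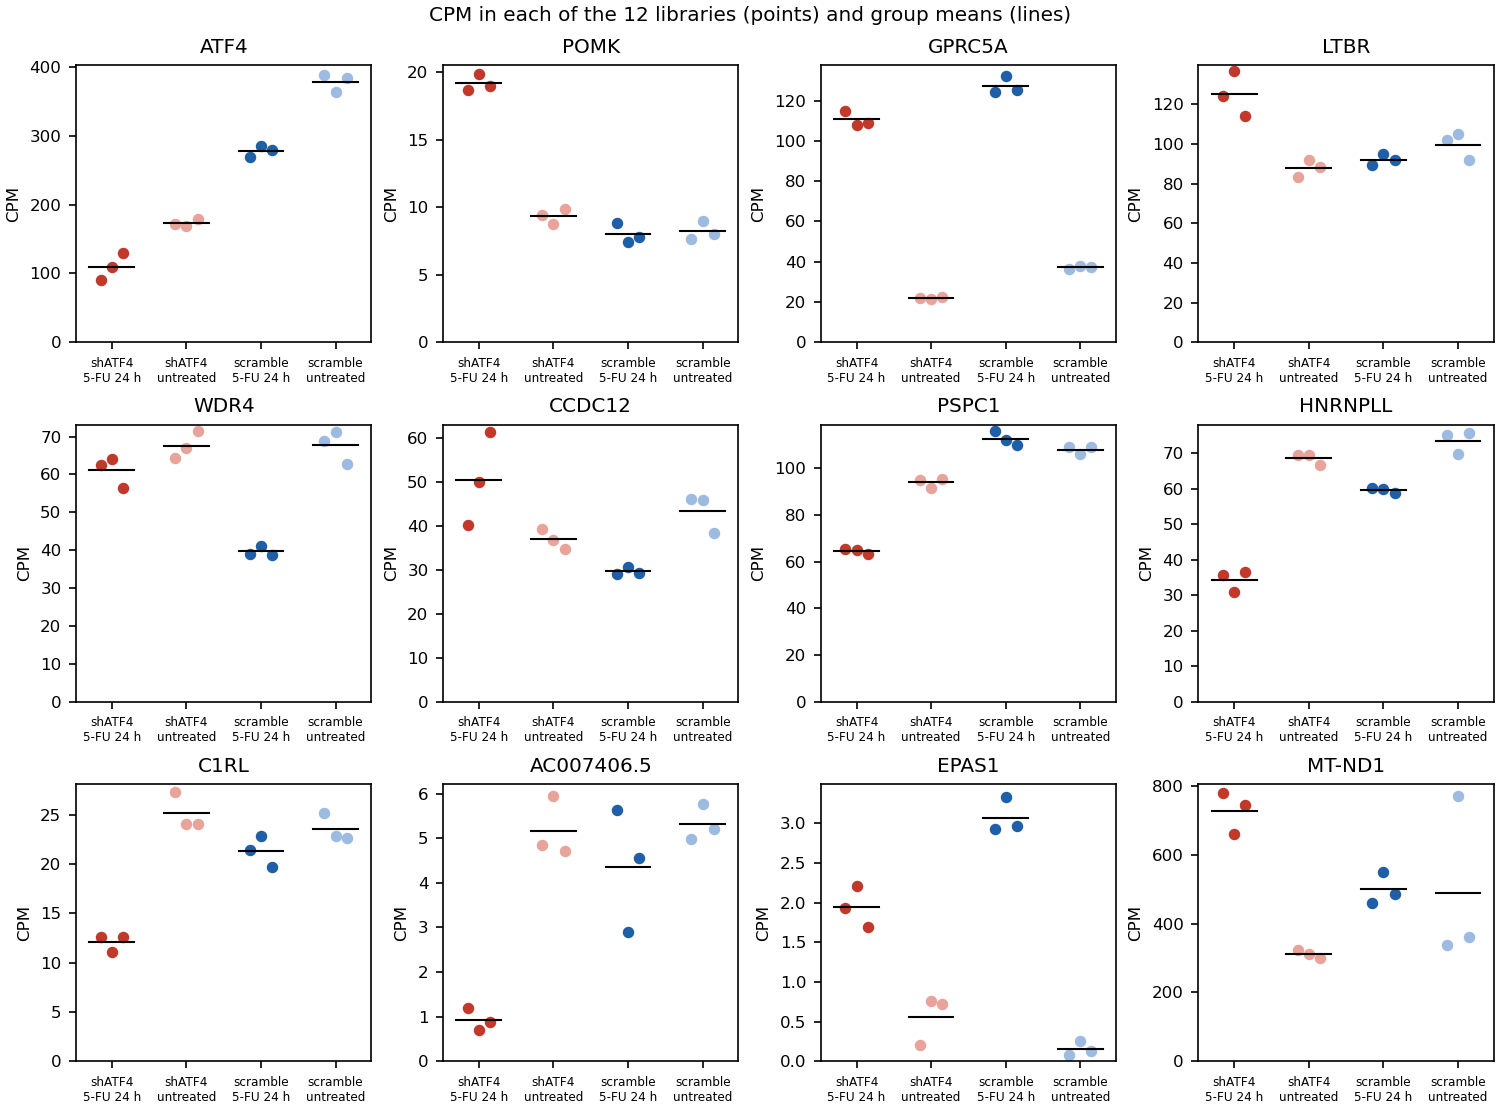
CPM of 12 genes in each of the 12 libraries, with points for libraries, lines for group means and a linear axis from 0. Groups run left to right as treated shATF4, untreated shATF4, treated scramble and untreated scramble; POMK is high only in the treated shATF4 group (18.7 to 19.9 CPM) and PSPC1, HNRNPLL and C1RL are lowest there.

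On the negative side, PSPC1, HNRNPLL and C1RL fell in shATF4 cells, and of the 3 only HNRNPLL was also called in scramble cells. PSPC1, a core protein of nuclear paraspeckles (chromosome 13, 19674752 to 19783019, minus strand), had 65.3, 64.9 and 63.1 CPM in treated and 94.8, 91.7 and 95.6 CPM in untreated shATF4 libraries, against 116, 112 and 110 CPM in treated and 109, 106 and 109 CPM in untreated scramble libraries. The treated shATF4 libraries were the lowest by a wide gap. The response was -0.55 (adjusted p = 3.62e-07) in shATF4 cells and 0.06 (adjusted p = 0.456) in scramble cells, an interaction of -0.60 ± 0.08 SE, adjusted p = 0.00651. HNRNPLL, a regulator of alternative splicing (chromosome 2, 38561978 to 38603586, minus strand), had 35.7, 30.9 and 36.5 CPM in treated and 69.5, 69.4 and 66.8 CPM in untreated shATF4 libraries, against 60.2, 59.9 and 58.9 CPM in treated and 75.1, 69.8 and 75.8 CPM in untreated scramble libraries. The treated shATF4 libraries were again the lowest, and the treated scramble libraries lay between them and the untreated ones. HNRNPLL fell in both lines, by 0.996 in shATF4 cells (adjusted p = 2.21e-09) and by 0.30 in scramble cells (adjusted p = 0.00226), with an interaction of -0.69 ± 0.11 SE, adjusted p = 0.00651. C1RL, a serine protease related to complement C1r (chromosome 12, 7089587 to 7109273, minus strand), had 12.6, 11.1 and 12.6 CPM in treated and 27.3, 24.1 and 24.1 CPM in untreated shATF4 libraries, against 21.4, 22.9 and 19.7 CPM in treated and 25.2, 22.9 and 22.7 CPM in untreated scramble libraries. Its treated shATF4 libraries were about level with each other and below all other libraries. C1RL changed by -1.05 (adjusted p = 5.92e-08) in shATF4 cells and by -0.14 (adjusted p = 0.246) in scramble cells, an interaction of -0.91 ± 0.14 SE, adjusted p = 0.00651.

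Both non-coding genes that held their call in all fits were negative. AC007406.5, listed as a sense-overlapping transcript (chromosome 12, 273954 to 277123, minus strand), had 1.19, 0.691 and 0.873 CPM in treated and 4.85, 5.95 and 4.72 CPM in untreated shATF4 libraries, against 5.63, 2.89 and 4.56 CPM in treated and 4.98, 5.77 and 5.22 CPM in untreated scramble libraries. No treated shATF4 library reached the lowest value of any other group, and the interaction was -2.20 ± 0.33 SE, adjusted p = 0.00651. AL365181.2, listed as a long intergenic RNA (chromosome 1, 156637783 to 156641004, minus strand), had 14.5, 12.8 and 13.7 CPM in treated and 26, 25.4 and 24.7 CPM in untreated shATF4 libraries, against 19.8, 20.3 and 16.9 CPM in treated and 18.3, 20 and 15.1 CPM in untreated scramble libraries. It was higher in untreated shATF4 cells than in untreated scramble cells (0.51, adjusted p = 0.00621) and lower when treated (-0.47, adjusted p = 0.00377), with an interaction of -0.98 ± 0.15 SE, adjusted p = 0.00651. The sources used here do not give the strand setting of the authors' counting, so reads of AC007406.5 and of the gene it overlaps cannot be told apart.

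The largest interactions belonged to genes of low level. EPAS1, which encodes the hypoxia-inducible factor HIF-2α (chromosome 2, 46293667 to 46386703, plus strand), had the largest negative one among protein-coding genes of at least 1 CPM. It had 1.93, 2.21 and 1.69 CPM in treated and 0.205, 0.761 and 0.716 CPM in untreated shATF4 libraries, against 2.93, 3.33 and 2.96 CPM in treated and 0.0732, 0.254 and 0.134 CPM in untreated scramble libraries. The untreated levels rest on 1 to 4 counts per scramble library and 3 to 11 counts per shATF4 library. The treated scramble libraries were the highest, the treated shATF4 libraries came next, and the untreated groups overlapped at the bottom. EPAS1 rose in both lines, by 1.78 (adjusted p = 0.000173) in shATF4 cells and by 4.22 (adjusted p = 2.98e-08) in scramble cells, with an interaction of -2.44 ± 0.60 SE, adjusted p = 0.0363. The call was lost without untreated scramble replicate 1 or 3, treated scramble replicate 1, 2 or 3, untreated shATF4 replicate 2 or 3 or treated shATF4 replicate 2 (adjusted p = 0.0608 to 0.132). ANKRD34A came next, with 1.31, 0.968 and 1.11 CPM in treated and 0.956, 1.73 and 1.22 CPM in untreated shATF4 libraries, against 2.64, 2.95 and 2.49 CPM in treated and 0.805, 0.951 and 0.737 CPM in untreated scramble libraries. The treated scramble libraries were the highest and the other groups overlapped. It rose in scramble cells (1.68, adjusted p = 3.53e-05) and its response in shATF4 cells was -0.20 (adjusted p = 0.601), an interaction of -1.88 ± 0.40 SE, adjusted p = 0.0195, which was lost without untreated shATF4 replicate 2 or treated shATF4 replicate 2 (adjusted p = 0.0526 to 0.0736).

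WIPI1, a phosphoinositide-binding protein of early autophagosomes, had 3.06, 3.52 and 4.25 CPM in treated and 3.21, 3.94 and 3.22 CPM in untreated shATF4 libraries, against 5.63, 6.1 and 5.86 CPM in treated and 1.83, 2.41 and 2.48 CPM in untreated scramble libraries. The treated scramble libraries were the highest and the untreated scramble libraries the lowest, with both shATF4 groups between them. WIPI1 rose in scramble cells (1.38, adjusted p = 3.28e-06) with a response of 0.07 (adjusted p = 0.798) in shATF4 cells, and the interaction was -1.31 ± 0.26 SE, adjusted p = 0.0147, lost without untreated shATF4 replicate 2 (adjusted p = 0.0556). The junctophilin gene JPH3 (interaction -1.52 ± 0.31 SE, adjusted p = 0.0188) kept its call in 10 of the 12 fits without 1 library and missed it without untreated scramble replicate 1 or treated scramble replicate 3 (adjusted p = 0.0522 to 0.0546). The ciliary dynein light chain gene DNALI1 (-1.81 ± 0.40 SE, adjusted p = 0.0245) and the ciliary kinesin gene KIF19 (-1.51 ± 0.35 SE, adjusted p = 0.0273) kept theirs in 7 and 8. DBH, which makes noradrenaline from dopamine, was at -1.37 (adjusted p = 0.0257) and its antisense gene DBH-AS1 at -1.08 (adjusted p = 0.0459). Reads of DBH and DBH-AS1 cannot be told apart. TBC1D10C (-1.84), WDR78 (-1.49), CCDC188 (-1.48), AHNAK2 (-1.45) and the integrin linker TLN2 (-1.35) completed the 12 largest negative genes, with adjusted p between 0.0262 and 0.0475. Each of the last 5 lost its call in 6 to 11 of the 12 fits, with adjusted p up to 0.138.

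On the positive side the largest among protein-coding genes of at least 1 CPM was SLC25A18, a mitochondrial glutamate carrier. It had 2.31, 2.76 and 2.21 CPM in treated and 0.41, 0.207 and 0.215 CPM in untreated shATF4 libraries, against 0.747, 1.19 and 1.3 CPM in treated and 0.659, 0.317 and 0.804 CPM in untreated scramble libraries. Levels in the treated shATF4 libraries were the highest, though all were low. It rose in shATF4 cells (3.09, adjusted p = 1.69e-06) and the response in scramble cells was 0.87 (adjusted p = 0.0619), with an interaction of 2.22 ± 0.56 SE, adjusted p = 0.0431, lost without untreated scramble replicate 1 or 3, treated scramble replicate 1, 2 or 3, untreated shATF4 replicate 1, 2 or 3 or treated shATF4 replicate 2 (adjusted p = 0.0605 to 0.118). RC3H1, which encodes the mRNA-decay protein roquin-1, had 72.2, 67.8 and 57.3 CPM in treated and 48, 41.8 and 39.1 CPM in untreated shATF4 libraries, against 36.9, 33 and 39.7 CPM in treated and 35.5, 39.6 and 42.7 CPM in untreated scramble libraries, with the treated shATF4 libraries above all others. Its interaction was 0.72 ± 0.15 SE, adjusted p = 0.0181, lost without treated scramble replicate 1 or 2 or untreated shATF4 replicate 2 (adjusted p = 0.0544 to 0.0578). ZNF816 (0.94), FAM160A1 (0.86), CFAP157 (0.78), the fucosyltransferase gene FUT10 (0.75) and LRP5L (0.72) had adjusted p between 0.0253 and 0.0451 and held their calls in 1 to 7 of the 12 fits, with adjusted p up to 0.128.

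A call in both lines with opposite signs was seen for 39 of the 5263 genes called in both responses. Of the 39, 35 were also called in the interaction, which opposite responses favour since it is their difference. The 5 named by rule were CCDC12, the antisense gene COL4A2-AS2 (interaction -3.37 ± 0.69 SE, adjusted p = 0.0178), the long intergenic RNA AL365203.2 (2.28 ± 0.54 SE, adjusted p = 0.0308), the processed pseudogene AL354718.1 (1.89 ± 0.43 SE, adjusted p = 0.0263) and DBH-AS1 (-1.08 ± 0.28 SE, adjusted p = 0.0459). COL4A2-AS2 had 7, 2 and 2 counts in the treated shATF4 libraries, against 34, 47 and 31 in the treated scramble libraries. It lies on the opposite strand of COL4A2, and AL354718.1 can share reads with its parent gene, so both are uncertain. Beside CCDC12, these 4 genes lost their calls in 2 to 11 of the 12 fits without 1 library, with adjusted p up to 0.109.

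The genes most closely tied to ATF4 gave 5 calls among the 82 genes of 5 lists, beside 2.13% of all genes tested. None of 19 regulators of the integrated stress response was called, and their median interaction was -0.01, beside 0.02 over all genes tested. DDIT3, the pro-death factor CHOP, had 8.23, 9.12 and 11.5 CPM in treated and 8.54, 8.02 and 7.37 CPM in untreated shATF4 libraries, against 7.07, 8.61 and 7.64 CPM in treated and 6.15, 6.47 and 5.29 CPM in untreated scramble libraries. The untreated scramble libraries were the lowest and the other 3 groups overlapped. Its interaction was -0.10 ± 0.20 SE, adjusted p = 0.833, with a 95% interval of -0.52 to 0.32. ATF3, a stress-induced repressor, had an interaction of -0.14 ± 0.32 SE, adjusted p = 0.863, and an interval of -0.80 to 0.52. TRIB3, a pseudokinase that feeds back on ATF4, was at -0.19 ± 0.12 SE, adjusted p = 0.417, and EIF2AK3, the gene of PERK, at -0.19 ± 0.18 SE, adjusted p = 0.616. Of the 19, 18 had an interval inside a 2-fold difference.

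Among 18 effectors of the pathway 2 were called, both positive, beside 2.13% of all genes tested, and the median was again -0.01. Without treated shATF4 replicate 3 the median was -0.11 with 3 called. GDF15, a stress cytokine, had 171, 180 and 168 CPM in treated and 32.9, 35.7 and 36 CPM in untreated shATF4 libraries, against 135, 150 and 138 CPM in treated and 37.7, 44.6 and 39.4 CPM in untreated scramble libraries. The treated libraries of both lines were far above the untreated ones, and the shATF4 ones above the scramble ones. GDF15 rose by 2.31 (adjusted p = 2.41e-14) in shATF4 cells and by 1.80 (adjusted p = 7.68e-13) in scramble cells, an interaction of 0.52 ± 0.11 SE, adjusted p = 0.0225, lost without treated scramble replicate 1 or 3, untreated shATF4 replicate 1 or 2 or treated shATF4 replicate 2 (adjusted p = 0.0578 to 0.0828). TNFRSF10B, the death receptor DR5 that binds TRAIL, had 115, 121 and 130 CPM in treated and 82.9, 81.7 and 84.9 CPM in untreated shATF4 libraries, against 99.2, 95.6 and 93 CPM in treated and 90.5, 86.9 and 92.5 CPM in untreated scramble libraries. It rose in shATF4 cells (0.55, adjusted p = 8.46e-07), where all 3 treated libraries were above the other 9, and its response in scramble cells was 0.09 (adjusted p = 0.267). The interaction of TNFRSF10B was 0.46 ± 0.09 SE, adjusted p = 0.0162, lost without treated scramble replicate 3 or untreated shATF4 replicate 2 (adjusted p = 0.0561 to 0.0625). The glutathione-degrading enzyme CHAC1, a close ATF4 target, was at -0.65 ± 0.23 SE, adjusted p = 0.137, with responses of -0.02 in shATF4 cells and 0.63 in scramble cells, and was not called.

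**Figure D3:**
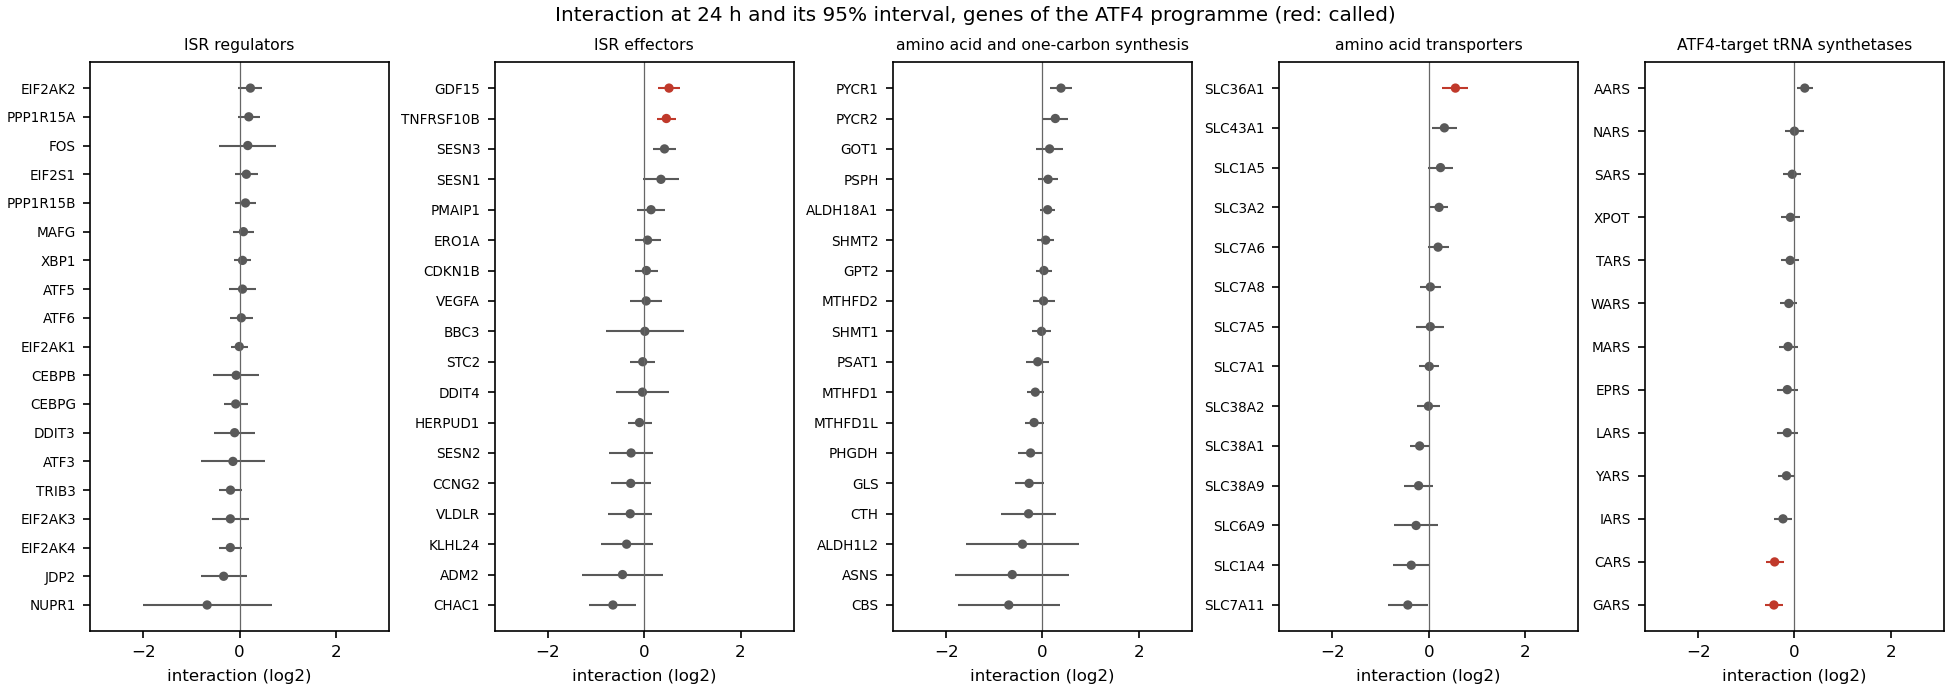
Interaction at 24 h (log2, points) with its 95% interval (lines) for the genes of 5 lists of the ATF4 programme, in red where called. GDF15, TNFRSF10B and SLC36A1 lie to the right of 0 and GARS and CARS to the left, while most other intervals include 0; the widest belong to NUPR1 and ASNS.

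Of 13 genes of tRNA charging and export known as ATF4 targets, 2 were called (15.4%), beside 2.13% of all genes tested. The 13 were tRNA synthetases and the exportin gene XPOT. Of these, 12 had a negative interaction, and the median was -0.13, beside 0.02 over all genes tested. The 8 other cytosolic synthetase genes had a median of 0.04, with 4 above and 4 below 0 and none called. The median of the 13 was -0.080 without untreated scramble replicate 2 and -0.096 with both libraries that stood apart left out. Their summed level was 2370, 2350 and 2450 CPM in treated and 3350, 3240 and 3250 CPM in untreated shATF4 libraries, against 2610, 2640 and 2670 CPM in treated and 3410, 3270 and 3530 CPM in untreated scramble libraries. Treated shATF4 libraries were the lowest. In shATF4 cells 12 of the 13 fell, and in scramble cells 10. GARS, the glycyl-tRNA synthetase gene, had 125, 116 and 125 CPM in treated and 230, 229 and 230 CPM in untreated shATF4 libraries, against 179, 179 and 194 CPM in treated and 259, 239 and 275 CPM in untreated scramble libraries. The treated shATF4 libraries were the lowest, with the treated scramble libraries next. GARS fell in both lines, by 0.91 in shATF4 cells (adjusted p = 1.02e-09) and by 0.48 in scramble cells (adjusted p = 4.3e-06), an interaction of -0.43 ± 0.09 SE, adjusted p = 0.0225. CARS, the cysteinyl-tRNA synthetase gene, had 71.1, 70.8 and 74.5 CPM in treated and 98.6, 95.4 and 98.8 CPM in untreated shATF4 libraries, against 108, 107 and 103 CPM in treated and 105, 105 and 113 CPM in untreated scramble libraries. Here the treated shATF4 libraries stood alone below the others. CARS fell by 0.44 in shATF4 cells (adjusted p = 1.43e-05), with a response of -0.02 (adjusted p = 0.783) in scramble cells and an interaction of -0.41 ± 0.09 SE, adjusted p = 0.0237. The GARS call was lost without untreated scramble replicate 1, treated scramble replicate 3, untreated shATF4 replicate 1 or 2 or treated shATF4 replicate 2 (adjusted p = 0.0541 to 0.0666), and the CARS call without untreated scramble replicate 1, treated scramble replicate 1, untreated shATF4 replicate 1, 2 or 3 or treated shATF4 replicate 2 (adjusted p = 0.0533 to 0.0675). AARS, for alanine, was the 1 positive member (0.21, adjusted p = 0.159).

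Amino acid synthesis and uptake gave 1 call among 32 genes, beside 2.13% of all genes tested. None of 18 synthesis and one-carbon enzymes was called, with a median of -0.06. The serine synthesis gene PHGDH had 23.6, 25.1 and 24.3 CPM in treated and 30.9, 26.6 and 26.3 CPM in untreated shATF4 libraries, against 50.4, 60.8 and 54.8 CPM in treated and 52.6, 56.9 and 51.4 CPM in untreated scramble libraries. The shATF4 libraries were below the scramble libraries with and without the drug, and the interaction was -0.25 ± 0.12 SE, adjusted p = 0.294. At 48 h the PHGDH interaction, which uses the same untreated libraries, was 0.98 (adjusted p = 0.000338). Of 14 transporters, SLC36A1, a lysosomal and plasma membrane carrier of small amino acids, was called. SLC36A1 had 38.5, 35.1 and 33.5 CPM in treated and 27.7, 27.9 and 28.4 CPM in untreated shATF4 libraries, against 22.1, 18.8 and 20.6 CPM in treated and 22, 25.7 and 23 CPM in untreated scramble libraries, with the treated shATF4 libraries the highest. It rose in shATF4 cells (0.35, adjusted p = 0.00322) with a response of -0.20 (adjusted p = 0.0849) in scramble cells, an interaction of 0.55 ± 0.13 SE, adjusted p = 0.0287, lost without untreated scramble replicate 2, treated scramble replicate 1, 2 or 3, untreated shATF4 replicate 1, 2 or 3 or treated shATF4 replicate 2 (adjusted p = 0.0551 to 0.0865). The cystine carrier SLC7A11 was at -0.43 ± 0.20 SE, adjusted p = 0.245, and was not called.

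The composite element that ATF4 binds with C/EBP partners was searched as TGATGNAA on both strands in the 250 bases before the RefSeq start (GRCh38.p14). A promoter was matched for 11322 of the 17309 genes, and 182 of these (1.61%) held the motif. It was in 0 of 112 matched promoters of positive called genes and in 0 of 140 of negative called genes. Among the 41 matched genes of the effector, synthesis, transporter and tRNA synthetase lists it was in 4 (9.76%), none of them called. A missing match says only that these letters are not in this window. CHAC1 and SLC1A5, a glutamine transporter, are shown because they hold the element and lie on opposite sides of 0, CHAC1 at -0.65 (interval -1.14 to -0.16) and SLC1A5 at 0.24 (interval -0.01 to 0.49). Capitals mark the match, on the other strand in CHAC1 (chr15:40953221-40953470, plus strand) and on the gene's strand in SLC1A5 (chr19:46784815-46785064, minus strand, printed 5′ to 3′ of the gene).
CHAC1: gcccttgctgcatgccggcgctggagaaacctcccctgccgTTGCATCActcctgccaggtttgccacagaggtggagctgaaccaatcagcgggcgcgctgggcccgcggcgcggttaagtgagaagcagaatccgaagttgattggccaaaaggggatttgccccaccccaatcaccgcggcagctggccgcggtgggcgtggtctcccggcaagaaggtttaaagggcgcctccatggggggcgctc
SLC1A5: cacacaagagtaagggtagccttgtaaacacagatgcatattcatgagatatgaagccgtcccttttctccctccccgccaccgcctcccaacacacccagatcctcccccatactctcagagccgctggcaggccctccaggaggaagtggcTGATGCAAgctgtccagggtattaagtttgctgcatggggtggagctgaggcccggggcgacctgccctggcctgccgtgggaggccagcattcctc

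Genes of ribosomes shared 1 direction. Of 44 ribosomal protein genes 5 were called (11.4%), RPL3, RPL8, RPLP2, RPS2 and RPS15, beside 2.13% of all genes tested. All 44 had a positive interaction, with a median of 0.40, beside 0.02 over all genes tested. They encode proteins of both ribosomal subunits. Their summed level was 30400, 34500 and 44400 CPM in treated and 46300, 45900 and 46300 CPM in untreated shATF4 libraries, against 27900, 28000 and 27900 CPM in treated and 47800, 45100 and 47800 CPM in untreated scramble libraries. The sum was lower in all treated libraries, and less so in the shATF4 ones, where replicate 3 was close to the untreated level. In shATF4 cells 26 of the 44 genes fell, and in scramble cells 42. The median response was -0.26 in shATF4 cells and -0.72 in scramble cells. Without treated shATF4 replicate 3 the median interaction was 0.22 with 12 genes called, and with both libraries that stood apart left out it was 0.24 with 16 called. The number called was 37, 1 and 12 without treated shATF4 replicates 1, 2 and 3, and 1, 0 and 4 without untreated shATF4 replicates 1, 2 and 3. It was 1, 3 and 0 without treated scramble replicates 1, 2 and 3, and 2, 7 and 6 without untreated scramble replicates 1, 2 and 3. Ribosomal protein genes have many processed pseudogenes, and reads may be split between them.

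RPL3 was the strongest faller among the called ribosomal protein genes. It had 719, 747 and 798 CPM in treated and 1760, 1720 and 1800 CPM in untreated shATF4 libraries, against 618, 629 and 608 CPM in treated and 1930, 1880 and 1890 CPM in untreated scramble libraries. The treated libraries of both lines were far below the untreated ones, with no overlap between the lines when treated. RPL3 fell by 1.22 in shATF4 cells (adjusted p = 8.88e-13) and by 1.62 in scramble cells (adjusted p = 2.03e-14), an interaction of 0.40 ± 0.08 SE, adjusted p = 0.0127. That call was lost without treated scramble replicate 3 or untreated shATF4 replicate 2 (adjusted p = 0.052 to 0.0534). RPS2 (0.44 ± 0.09 SE, adjusted p = 0.0178, or 0.28 with the correction for GC and length) fell in both lines, and RPS15 (0.48 ± 0.11 SE, adjusted p = 0.0262) fell in scramble cells and was not called in the shATF4 response. They lost their calls in 5 and 7 of the 12 fits without 1 library, with adjusted p up to 0.0828.

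Ribosome biogenesis genes followed the same direction. Of 25, 22 were positive with a median of 0.22, and 3 were called (12%), beside 2.13% of all genes tested. NCL, the nucleolar protein nucleolin, had 1240, 1270 and 1540 CPM in treated and 1860, 1800 and 1870 CPM in untreated shATF4 libraries, against 993, 1020 and 1050 CPM in treated and 1880, 1870 and 1870 CPM in untreated scramble libraries. The treated scramble libraries were the lowest, the treated shATF4 libraries came next, and both untreated groups were level. NCL fell by 0.45 in shATF4 cells (adjusted p = 1.71e-05) and by 0.88 in scramble cells (adjusted p = 2.4e-09), an interaction of 0.43 ± 0.10 SE, adjusted p = 0.0257. DKC1, the pseudouridine synthase of box H/ACA particles, was at 0.44 ± 0.11 SE, adjusted p = 0.0325, and BYSL, a factor of small subunit assembly, at 0.47 ± 0.12 SE, adjusted p = 0.0431. NCL lost its call in 6 of the 12 fits without 1 library, DKC1 in 9 and BYSL in 10, with adjusted p up to 0.129. The number called was 8 without treated shATF4 replicate 1, 3 without replicate 3, 2 without untreated scramble replicate 2 and 0 or 1 without any other library. The list's median was 0.17 without treated shATF4 replicate 3 and 0.21 with both libraries that stood apart left out.

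**Figure D4:**
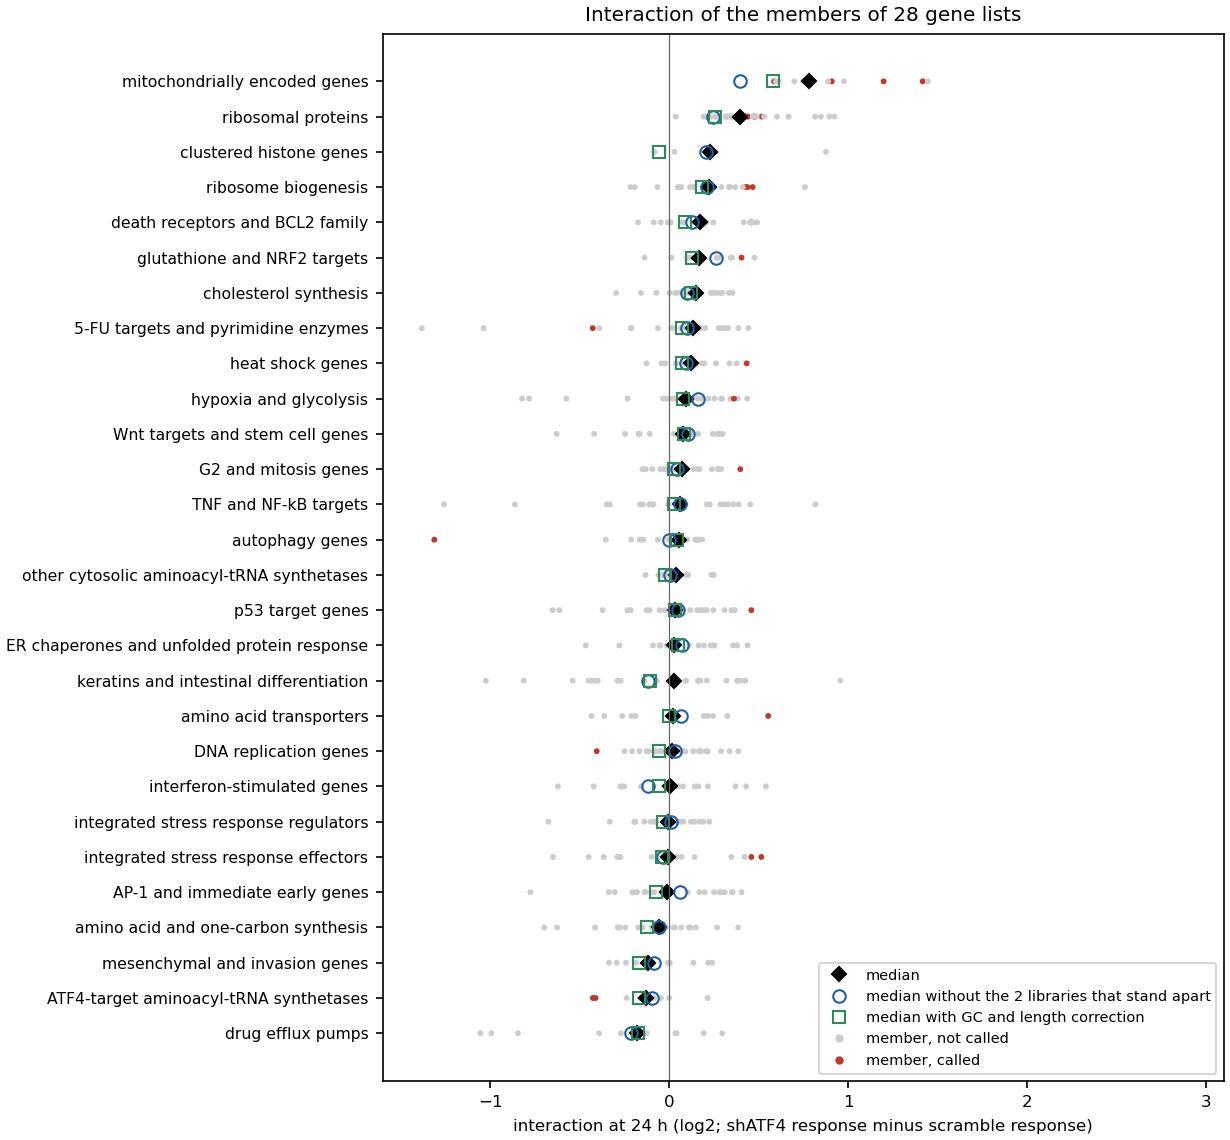
Interaction at 24 h (log2) of the measured members of 28 gene lists, 1 row per list, ordered by the median (black diamond). Small points are members, red where called; open circles are medians without untreated scramble replicate 2 and treated shATF4 replicate 3, and open squares medians with a GC and length correction. Mitochondrially encoded genes (0.78) and ribosomal proteins (0.40) lie furthest to the right and drug efflux pumps (-0.18) furthest to the left.

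Of 13 mitochondrially encoded genes 4 were called (30.8%), beside 2.13% of all genes tested. All 13 had a positive interaction, with a median of 0.78, and the size of this median rested mainly on untreated scramble replicate 2. Their summed level was 14900, 12500 and 15700 CPM in treated and 8700, 8390 and 8350 CPM in untreated shATF4 libraries, against 10200, 11900 and 10700 CPM in treated and 8390, 16000 and 8620 CPM in untreated scramble libraries. Untreated scramble replicate 2 was above every treated shATF4 library. The median was 0.45 without untreated scramble replicate 2 and 0.39 with treated shATF4 replicate 3 left out as well, and 4 and 6 genes were called then. Without treated shATF4 replicate 3 alone the median was 0.77. None was called without any 1 untreated shATF4 library or without treated scramble replicate 1 or 3, and 1 without treated scramble replicate 2. The number was 6, 3 and 6 without treated shATF4 replicates 1, 2 and 3, and 6 and 9 without untreated scramble replicates 1 and 3. MT-ND1, a subunit of respiratory complex I, had 782, 661 and 745 CPM in treated and 323, 311 and 300 CPM in untreated shATF4 libraries, against 460, 552 and 488 CPM in treated and 339, 771 and 360 CPM in untreated scramble libraries. The treated shATF4 libraries were above all others except untreated scramble replicate 2, which lay among them. Its interaction was 1.20 ± 0.27 SE, adjusted p = 0.0253, against 0.71 (adjusted p = 0.0121) without untreated scramble replicate 2 and 0.70 (adjusted p = 0.000583) without both libraries that stood apart. The call of MT-ND1 was lost without treated scramble replicate 1 or 3 or untreated shATF4 replicate 1, 2 or 3 (adjusted p = 0.0551 to 0.0828). MT-ND4L, another complex I gene that overlaps MT-ND4, had 416 CPM in treated shATF4 replicate 3, against 189 and 161 CPM in replicates 1 and 2. The MT-ND4L interaction of 1.42 (adjusted p = 0.0301) was 0.87 without that library (adjusted p = 0.0119) and 0.58 without both libraries that stood apart (adjusted p = 0.00306), and its call was lost without untreated scramble replicate 2, treated scramble replicate 1, 2 or 3 or untreated shATF4 replicate 1, 2 or 3 (adjusted p = 0.0525 to 0.087). MT-CYB was at 0.91 ± 0.24 SE, adjusted p = 0.0459, against 0.51 (adjusted p = 0.0372) without untreated scramble replicate 2, 0.50 (adjusted p = 0.00831) without both and 0.77 (adjusted p = 0.0790) with the correction for GC and length, and lost its call in 7 of the 12 fits without 1 library. MT-ND2 was at 0.59 ± 0.14 SE, adjusted p = 0.0294, against 0.36 (adjusted p = 0.0122) without both and 0.45 (adjusted p = 0.119) with that correction, and lost its call in 6, with adjusted p of both up to 0.132.

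Drug targets and pyrimidine enzymes gave 1 call among 25 genes, beside 2.13% of all genes tested. There were 0 to 6 called with 1 library left out, 3 of them without treated shATF4 replicate 3, and 7 with the correction for GC and length. CAD, which carries out the opening steps of pyrimidine synthesis, had 211, 190 and 172 CPM in treated and 320, 328 and 334 CPM in untreated shATF4 libraries, against 305, 316 and 296 CPM in treated and 380, 429 and 358 CPM in untreated scramble libraries. The treated shATF4 libraries were the lowest and did not overlap any other group. CAD fell by 0.78 in shATF4 cells (adjusted p = 1.26e-07) and by 0.35 in scramble cells (adjusted p = 0.00112), an interaction of -0.43 ± 0.11 SE, adjusted p = 0.048, lost without untreated scramble replicate 1 or 3, treated scramble replicate 1, 2 or 3, untreated shATF4 replicate 1, 2 or 3 or treated shATF4 replicate 2 (adjusted p = 0.0807 to 0.115). TYMS, the gene of thymidylate synthase, was at 0.13 ± 0.11 SE, adjusted p = 0.553, with an interval of -0.09 to 0.35. UMPS, which turns 5-FU into its nucleotide, was at 0.39 ± 0.12 SE, adjusted p = 0.0824, and RRM2, a subunit of ribonucleotide reductase, at -0.06 ± 0.11 SE, adjusted p = 0.821. None of these 3 was called.

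Lists of inflammatory and death genes gave 1 called gene, TNFRSF10B, beside 2.13% of all genes tested. Of 22 TNF and NF-κB targets, 21 rose in each line and none was called, with a median interaction of 0.06. The chemokine gene CCL20 had 61.1, 69.1 and 91.8 CPM in treated and 12.6, 12.2 and 11.7 CPM in untreated shATF4 libraries, against 52.6, 42 and 48.2 CPM in treated and 10.5, 9.38 and 9.65 CPM in untreated scramble libraries. The treated libraries of both lines were far above the untreated ones, and the treated shATF4 values spread widely above the scramble ones. Its interaction was 0.33 ± 0.19 SE, adjusted p = 0.375, with an interval of -0.07 to 0.73. CXCL8 was at 0.39 ± 0.23 SE, adjusted p = 0.386, and TNF itself, with a mean of 0.541 CPM, at -0.86 ± 1.01 SE, adjusted p = 0.699, with an interval of -2.97 to 1.24. Interferon-stimulated genes had a median of 0.00, with none of 20 called. Of 26 p53 targets only TNFRSF10B was called, with a median of 0.03, and CDKN1A, the cell-cycle inhibitor p21, was at -0.61 ± 0.32 SE, adjusted p = 0.313, with responses of 3.28 in shATF4 cells and 3.90 in scramble cells. The list of death receptors and the BCL2 family had the same single call among 20 genes and a median of 0.17.

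Among cell-cycle genes, 1 of 28 genes of G2 and mitosis was called, beside 2.13% of all genes tested. All 28 had an interval inside a 2-fold difference, as did 66.5% of all genes tested and 98% of those of at least 10 CPM. Of the 28, 17 fell in shATF4 cells and 20 in scramble cells. PLK1, the mitotic kinase, had responses of -1.34 in shATF4 cells and -1.40 in scramble cells, an interaction of 0.06 ± 0.10 SE, adjusted p = 0.809, with an interval of -0.14 to 0.26. UBE2C, the ubiquitin-conjugating enzyme of the anaphase-promoting complex, was the called one. It had 108, 109 and 124 CPM in treated and 128, 129 and 123 CPM in untreated shATF4 libraries, against 92.5, 96.3 and 97.7 CPM in treated and 143, 138 and 140 CPM in untreated scramble libraries. Levels were lowest in treated scramble libraries. The interaction of UBE2C was 0.40 ± 0.09 SE, adjusted p = 0.03, or 0.17 with a correction for GC and transcript length (adjusted p = 0.196), and it was lost without untreated scramble replicate 1, treated scramble replicate 1, 2 or 3, untreated shATF4 replicate 1, 2 or 3 or treated shATF4 replicate 2 (adjusted p = 0.0509 to 0.105). All 30 DNA replication genes were also inside 2-fold, and 1 was called, beside the same 2.13%. That was POLA1, the catalytic subunit of DNA polymerase alpha, at -0.41 ± 0.09 SE, adjusted p = 0.029. POLA1 fell by 0.30 in shATF4 cells (adjusted p = 0.00118), with a response of 0.11 (adjusted p = 0.203) in scramble cells, and lost its call without untreated scramble replicate 1 or 2, treated scramble replicate 1, 2 or 3, untreated shATF4 replicate 1 or 2 or treated shATF4 replicate 2 (adjusted p = 0.057 to 0.0858).

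Of 4 further lists with 1 called member each, autophagy held WIPI1, and the others held FTL, ENO1 and HSPB1. These lists had 14 to 22 genes each, and 2.13% of all genes tested were called. FTL, the ferritin light chain, had 468, 500 and 476 CPM in treated and 502, 531 and 505 CPM in untreated shATF4 libraries, against 361, 357 and 350 CPM in treated and 478, 507 and 520 CPM in untreated scramble libraries. Levels were lowest in treated scramble libraries, and the other 3 groups lay close together. FTL fell in scramble cells (-0.50, adjusted p = 5.17e-07) with a response of -0.09 (adjusted p = 0.199) in shATF4 cells, an interaction of 0.40 ± 0.08 SE, adjusted p = 0.0149, lost without treated scramble replicate 3 or untreated shATF4 replicate 1 (adjusted p = 0.051 to 0.063). With the correction for GC and transcript length the FTL value was 0.17 (adjusted p = 0.263). The glycolytic enzyme gene ENO1 was at 0.36 ± 0.07 SE, adjusted p = 0.0143, lost without treated scramble replicate 1 or 3 or untreated shATF4 replicate 1 or 2 (adjusted p = 0.0508 to 0.0608). HSPB1, a small heat shock protein, was at 0.43 ± 0.11 SE, adjusted p = 0.0459, and it kept its call in 4 of the 12 fits without 1 library, with adjusted p up to 0.152. No gene was called among 20 chaperone genes of the endoplasmic reticulum (median 0.03), 11 drug efflux pumps (-0.18), 15 mesenchymal genes (-0.12), 19 Wnt targets (0.08), 22 cholesterol synthesis genes (0.15), 25 keratin and differentiation genes (0.03, or -0.11 with the correction for GC and length), 23 AP-1 and immediate early genes (-0.01) or 9 clustered histone genes (0.23, or -0.06 with that correction). That holds for the fit of all libraries. With both libraries that stood apart left out, 4 Wnt targets, 3 AP-1 genes, 2 cholesterol genes, 1 chaperone gene and 1 keratin or differentiation gene were called. With the correction for GC and length the called ones were 5 Wnt targets, 4 chaperone genes, 4 cholesterol genes, 3 keratin or differentiation genes, 2 AP-1 genes, 1 mesenchymal gene and 1 efflux pump. Among the efflux pumps ABCB1, the pump P-glycoprotein, was at -0.27 ± 0.17 SE, adjusted p = 0.406, and ABCG2 at -0.99 ± 0.83 SE, adjusted p = 0.563.

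None of the 8 largest rises and 8 largest falls of the mean response had a called interaction, beside 2.13% of all genes tested. At that share hardly any call is expected among so few genes, so this does not set them apart. Several were also imprecise, with response SEs in shATF4 and scramble cells of 0.485 and 0.527 for KRT16 and 0.313 and 0.370 for DHRS2. The 8 largest rises were KRT16, ACVRL1, PTPN7, PADI1, AGR2, KRT6A, KRT6B and IGF2, between 3.81 and 4.94 on the log2 scale. PADI1, which converts arginine to citrulline in proteins and had the highest level of the 8, had 17.3, 19 and 24.2 CPM in treated and 1.64, 1.66 and 1.29 CPM in untreated shATF4 libraries, against 16.1, 17.5 and 18.4 CPM in treated and 1.24, 1.2 and 0.469 CPM in untreated scramble libraries. Treated and untreated libraries did not overlap in either line, and the lines overlapped when treated. Its interaction was -0.43 ± 0.34 SE, adjusted p = 0.541, with an interval of -1.15 to 0.28. For KRT16, at 0 to 0.254 CPM in all untreated libraries, the interval of -2.47 to 1.67 means that a 2-fold difference in either direction was not detectable at this depth. The 8 largest falls were DHRS2, HIST2H2BE, HIST3H2A, HIST1H2AC, FAM156B, HIST1H2BD, HIST1H2BK and DPH6, between -3.78 and -1.78. HIST1H2AC, a histone gene, had 4.68, 5.81 and 4.25 CPM in treated and 19.6, 21.8 and 20.5 CPM in untreated shATF4 libraries, against 2.53, 1.89 and 2.37 CPM in treated and 12.5, 10.7 and 11.3 CPM in untreated scramble libraries. Treated libraries were below untreated ones in both lines. The interaction was 0.26 ± 0.20 SE, adjusted p = 0.528, with an interval of -0.16 to 0.68. FAM156B varied widely within its groups, with 0.41, 1.66 and 8.45 CPM in untreated shATF4 libraries and 5.78, 0.444 and 0.469 CPM in untreated scramble libraries.

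The called genes differed in transcript length and base composition. The longest annotated transcript had a median of 2742 nt for the positive genes and 4280 nt for the negative ones, against 3109 nt over all genes tested, and the median GC content was 52% for the positive genes and 45.4% for the negative ones, against 49.2% over all genes tested. Of the negative genes 15.6% were long non-coding, against 3.66% of the positive ones and 14.6% of all genes tested. These sets differed in level, with medians of 25.9 CPM for negative genes, 79.1 CPM for positive genes and 16.4 CPM for all genes tested. Among genes of at least 10 CPM the median length was 2775 nt for positive and 4896 nt for negative genes, against 3806 nt for all. Across 5 equal bins of the genes of at least 10 CPM, the median interaction was 0.16 in the bin of the shortest transcripts (56 positive and 6 negative called) and -0.01 in the longest (19 positive and 47 negative). In the shortest bin the median response was 0.04 in shATF4 cells and -0.14 in scramble cells. The shortest and longest bins stood at 0.11 and 0.03 with both libraries that stood apart left out, and at 0.03 and 0.02 with a correction for GC and length in each library. The correction removes each library's trend with GC and length, so nearly equal bins under it are fixed in advance. The correction was chosen after the data were seen. It called 1394 genes, 354 of them among the 369, and left the ribosomal proteins at a median of 0.26, with 15 called, and the mitochondrially encoded genes at 0.58, with 2 called. Why transcript length went with the interaction was not tested.

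**Figure D5:**
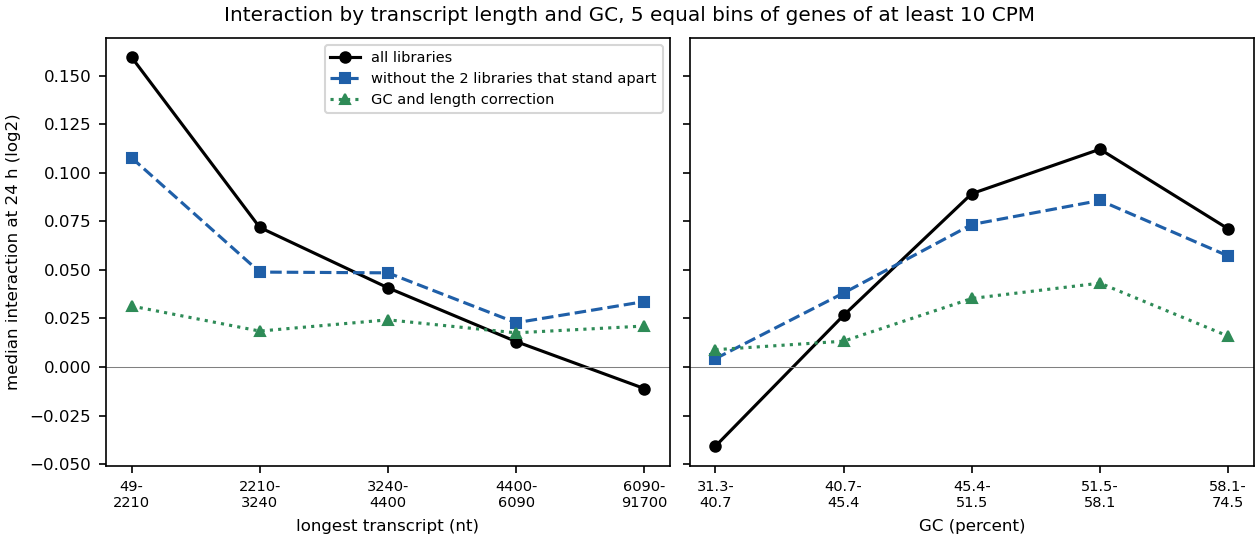
Median interaction at 24 h (log2, vertical axis) in 5 equal bins of 9778 genes of at least 10 CPM by length of the longest transcript (left) and by its GC content (right), with each bin's range under the axis. Black is all libraries, blue without the 2 libraries that stood apart and green with the GC and length correction. The black line falls with length, to -0.01 in the longest bin. The green line is nearly flat, which the correction imposes.

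Values at 48 h of 5-FU, with 2 libraries per line, are given beside those at 24 h without a test of the difference, since both use the same untreated libraries. Of the genes positive at 24 h, the interaction at 48 h was 0.41 (adjusted p = 0.0211) for B4GALT5, 0.33 (adjusted p = 0.157) for LTBR, -0.10 (adjusted p = 0.897) for POMK, 0.12 (adjusted p = 0.641) for GPRC5A and -0.11 (adjusted p = 0.852) for CCDC12, while WDR4 was at -0.42 (adjusted p = 0.0824). Of the genes negative at 24 h it was -0.20 (adjusted p = 0.308) for PSPC1, 0.08 (adjusted p = 0.807) for HNRNPLL, 0.01 (adjusted p = 0.995) for AC007406.5, 0.04 (adjusted p = 0.943) for AL365181.2 and 0.79 (adjusted p = 0.00556) for C1RL, which was positive and called at 48 h. JPH3 (-1.75, adjusted p = 0.00458), DNALI1 (-1.75, adjusted p = 0.0267) and TBC1D10C (-2.08, adjusted p = 0.0189) were negative and called at both times, and RPL3 (0.65, adjusted p = 0.000261) positive and called at both. DDIT3, not called at 24 h, was at -1.22 (adjusted p = 0.00298) at 48 h.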

How the data were processed

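The mRNA of SW620 cells was captured on oligo-dT beads and primed with random hexamers, per the labels' protocols. The deposited table holds read counts per gene. Per the submitters' processing notes, the authors used featureCounts 1.5.0-p3 and the build GRCh38 (hg38). The sources used here do not give the aligner, annotation release or strand setting. The 2 libraries per line whose titles say 48 h carry a treatment label of 24 h, and the titles were followed.

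Genes were kept with filterByExpr, which left 17309 of 58735 genes with 99.9% of counts. Counts were scaled by TMM and fitted with edgeR 4.0.16 (quasi-likelihood) in R 4.3.3 with limma 3.58.1, over all 16 libraries in 6 groups (10 residual degrees of freedom, common biological coefficient of variation 0.0847). P-values were adjusted by Benjamini-Hochberg over all genes tested, with a threshold of 0.05. CPM use the scaled library sizes, apart from the sums and means of cell type markers, which use total counts. Each SE is the absolute log2 value divided by the square root of the test's F. This ratio can be off where the value is near 0. For DHRS2 the SE was 1.18 at an interaction of -0.06, against 0.313 and 0.370 for its 2 responses. Intervals are 95% intervals of the log2 fold change, built from these SEs, and include the spread between libraries. DESeq2 1.42.0 was an alternative. The fit was tested on simulated data. Depth was 14571611 to 17824188 counts per library. No 2 libraries agreed within sampling noise.

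Genes named are ATF4, the 12 largest called protein-coding genes of at least 1 CPM in each direction, the 5 with the smallest p in each direction, the 8 largest rises and falls of the mean response, up to 3 called members of each list (or its first 2 measured) and up to 5 genes called with opposite signs. A few further list members were named after their values were seen. The members and lists were chosen with earlier results of these data known. Promoter sequences are RefSeq's (GRCh38.p14). Alternatives were other scalings, other filters, DESeq2, the 12 libraries alone, a replicate block, each library left out, both libraries that stood apart left out, and a correction for GC and length.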

Additional observations from a re-analysis of the deposited data

Results flagged for a closer look

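The response to 24 h of 5-FU differed between shATF4 and scramble cells by edgeR's test of the interaction for 369 genes, and each value here is such a difference on the log2 scale. Among the 55 called genes picked by the naming rule, 32 responded more positively in shATF4 cells. They were AL365203.2 (2.28), SLC25A18 (2.22), AL354718.1 (1.89), MT-ND4L (1.42), MT-ND1 (1.20), POMK (1.07), CCDC12 (1.002), ZNF816 (0.94), MT-CYB (0.91), FAM160A1 (0.86), CFAP157 (0.78), FUT10 (0.75), LRP5L (0.72), RC3H1 (0.72), WDR4 (0.63), LTBR (0.62), MT-ND2 (0.59), GPRC5A (0.58), SLC36A1 (0.55), B4GALT5 (0.55), GDF15 (0.52), RPS15 (0.48), BYSL (0.47), TNFRSF10B (0.46), RPS2 (0.44), DKC1 (0.44), HSPB1 (0.43), NCL (0.43), FTL (0.40), UBE2C (0.40), RPL3 (0.40) and ENO1 (0.36). The other 23 had a negative interaction. They were COL4A2-AS2 (-3.37), EPAS1 (-2.44), AC007406.5 (-2.20), ANKRD34A (-1.88), TBC1D10C (-1.84), DNALI1 (-1.81), JPH3 (-1.52), KIF19 (-1.51), WDR78 (-1.49), CCDC188 (-1.48), AHNAK2 (-1.45), DBH (-1.37), TLN2 (-1.35), WIPI1 (-1.31), DBH-AS1 (-1.08), AL365181.2 (-0.98), C1RL (-0.91), HNRNPLL (-0.69), PSPC1 (-0.60), CAD (-0.43), GARS (-0.43), CARS (-0.41) and POLA1 (-0.41). All had an adjusted p under 0.05. The sign of each was kept in every alternative fit, which their choice on the same libraries favours.

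How far these calls rest on single libraries is given by the 12 fits that left out 1 library each, over the same 55 genes. Without treated shATF4 replicate 1, 1 gene lost the call, namely FAM160A1 (adjusted p = 0.0508). 28 genes lost it without treated shATF4 replicate 2 (adjusted p between 0.0509 and 0.114), and these were AHNAK2, AL354718.1, AL365203.2, ANKRD34A, BYSL, CAD, CARS, CCDC188, CFAP157, COL4A2-AS2, DBH-AS1, DKC1, EPAS1, FAM160A1, GARS, GDF15, HSPB1, LRP5L, MT-CYB, POLA1, RPS15, RPS2, SLC25A18, SLC36A1, TBC1D10C, UBE2C, WDR78 and ZNF816. Leaving out treated shATF4 replicate 3 ended the call of 3 genes, which were CCDC188, DBH-AS1 and WDR78 (adjusted p between 0.0517 and 0.0612). Without untreated shATF4 replicate 1, 37 genes lost the call, namely AHNAK2, AL354718.1, AL365203.2, BYSL, CAD, CARS, CCDC188, CFAP157, COL4A2-AS2, DBH, DBH-AS1, DKC1, DNALI1, ENO1, FAM160A1, FTL, FUT10, GARS, GDF15, HSPB1, KIF19, LRP5L, MT-CYB, MT-ND1, MT-ND2, MT-ND4L, NCL, POLA1, RPS15, RPS2, SLC25A18, SLC36A1, TBC1D10C, TLN2, UBE2C, WDR78 and ZNF816 (adjusted p between 0.0508 and 0.125). 41 genes lost it without untreated shATF4 replicate 2 (adjusted p between 0.0528 and 0.132), and these were AHNAK2, AL354718.1, AL365203.2, ANKRD34A, BYSL, CAD, CARS, CCDC188, CFAP157, DBH, DBH-AS1, DKC1, DNALI1, ENO1, EPAS1, FAM160A1, FUT10, GARS, GDF15, HSPB1, KIF19, LRP5L, MT-CYB, MT-ND1, MT-ND2, MT-ND4L, NCL, POLA1, RC3H1, RPL3, RPS15, RPS2, SLC25A18, SLC36A1, TBC1D10C, TLN2, TNFRSF10B, UBE2C, WDR78, WIPI1 and ZNF816. Leaving out untreated shATF4 replicate 3 ended the call of 24 genes, which were AHNAK2, AL354718.1, BYSL, CAD, CARS, CCDC188, CFAP157, DBH, DBH-AS1, DKC1, EPAS1, FAM160A1, HSPB1, MT-CYB, MT-ND1, MT-ND2, MT-ND4L, SLC25A18, SLC36A1, TBC1D10C, TLN2, UBE2C, WDR78 and ZNF816 (adjusted p between 0.0504 and 0.138). Without treated scramble replicate 1, 31 genes lost the call, namely AHNAK2, AL365203.2, BYSL, CAD, CARS, CCDC188, CFAP157, DBH-AS1, DKC1, DNALI1, ENO1, EPAS1, FAM160A1, GDF15, HSPB1, MT-CYB, MT-ND1, MT-ND2, MT-ND4L, NCL, POLA1, RC3H1, RPS15, RPS2, SLC25A18, SLC36A1, TBC1D10C, TLN2, UBE2C, WDR78 and ZNF816 (adjusted p between 0.0519 and 0.152). 26 genes lost it without treated scramble replicate 2 (adjusted p between 0.0524 and 0.0965), and these were AHNAK2, AL354718.1, AL365203.2, BYSL, CAD, CCDC188, CFAP157, DBH, DBH-AS1, DKC1, EPAS1, FAM160A1, FUT10, LRP5L, MT-CYB, MT-ND2, MT-ND4L, NCL, POLA1, RC3H1, RPS15, SLC25A18, SLC36A1, TBC1D10C, UBE2C and ZNF816. Leaving out treated scramble replicate 3 ended the call of 38 genes, which were AHNAK2, AL354718.1, AL365203.2, BYSL, CAD, CCDC188, CFAP157, DBH, DBH-AS1, DKC1, DNALI1, ENO1, EPAS1, FAM160A1, FTL, FUT10, GARS, GDF15, HSPB1, JPH3, KIF19, LRP5L, MT-CYB, MT-ND1, MT-ND2, MT-ND4L, NCL, POLA1, RPL3, RPS15, RPS2, SLC25A18, SLC36A1, TBC1D10C, TLN2, TNFRSF10B, UBE2C and WDR78 (adjusted p between 0.052 and 0.134). Without untreated scramble replicate 1, 28 genes lost the call, namely AHNAK2, AL354718.1, AL365203.2, BYSL, CAD, CARS, CCDC188, CFAP157, DBH, DBH-AS1, DKC1, DNALI1, EPAS1, FAM160A1, FUT10, GARS, HSPB1, JPH3, KIF19, NCL, POLA1, RPS15, SLC25A18, TBC1D10C, TLN2, UBE2C, WDR78 and ZNF816 (adjusted p between 0.0522 and 0.115). 12 genes lost it without untreated scramble replicate 2 (adjusted p between 0.0581 and 0.0989), and these were AL365203.2, BYSL, CCDC188, CFAP157, DBH-AS1, FAM160A1, HSPB1, LRP5L, MT-ND4L, POLA1, SLC36A1 and WDR78. Leaving out untreated scramble replicate 3 ended the call of 9 genes, which were BYSL, CAD, CCDC188, DBH-AS1, DKC1, EPAS1, FAM160A1, SLC25A18 and TBC1D10C (adjusted p between 0.0515 and 0.0984).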

How the results depend on the processing

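The 369 called genes were chosen on the same counts, which favours a kept sign. All kept it in each alternative that tested them (368 in the fit of the 12 libraries and 367 with a minimum of 1 CPM). The number called moved by over 1.5 times in several. DESeq2 called 606 (287 positive, 319 negative; 364 shared with the 369), no filter on low counts 798 (481 and 317), the 12 libraries of the 4 groups alone 173 (64 and 109), both libraries that stood apart left out 647 (371 and 276), and the correction for GC and length, chosen after the data were seen, 1394 (647 and 747). Leaving out 1 library gave 65 to 1188 genes, 20 to 677 positive and 45 to 511 negative. Median-of-ratios scaling called 355. A fit with the replicate number as a replicate block called 644 (328 and 316), with all 369 kept. Whether the numbers pair the libraries cannot be told from these values. Deviations of same-numbered libraries correlated between -0.506 and 0.514, with 7 of 18 pairs above 0.1. Those of other pairs correlated between -0.526 and 0.523, with 9 of 36 above 0.1. The counts for both responses and their mean stayed within 1.5 times in all alternatives. The cause of these shifts was not tested.

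Among the named genes, those that changed sign in an alternative were all uncalled. Upper-quartile scaling put OAS1 at -0.021. With both libraries that stood apart left out, ACVRL1 was at 0.047, DHRS2 at 0.057, OAS1 at -0.20, HMGCS1 at -0.0036 and VIM at 0.15. The correction for GC and length put HIST1H2BD at -0.028, HIST1H2BK at -0.15, DPH6 at 0.0020, OAS1 at -0.073 and IFI6 at -0.031. With 1 library left out, the ranges that crossed 0 were -4.05 to 0.15 for KRT16, -0.62 to 0.76 for ACVRL1, -0.19 to 0.47 for PTPN7, -0.36 to 0.44 for HIST2H2BE, -1.996 to 1.98 for FAM156B, -0.14 to 0.13 for OAS1, -0.084 to 0.44 for FOS, -0.050 to 0.20 for CDX2, -0.75 to 0.48 for AGR2, -0.25 to 0.29 for DHRS2, -0.11 to 0.11 for VIM, -0.087 to 0.026 for HARS, -0.044 to 0.15 for HMGCS1, -0.11 to 0.45 for HIST1H2BD, -0.30 to 0.10 for ATF3, -0.81 to 0.17 for KRT6A, -0.91 to 0.45 for KRT6B and -0.077 to 0.36 for DNAJB9. Depth limits genes under 10 CPM most, where many intervals were wider than 2-fold.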
